A study of Mus musculus with 6 samples.

Results

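Interferon-stimulated genes are the genes that a cell switches on when interferon, a secreted alarm signal of virus infection, reaches its receptors. A list of 43 of them was looked up by gene name in the RNA-seq counts of Gli1+ and Gli1- chondrogenic cells, and all 43 were found among the 54532 genes of the table. Of these, 36 had 10 or more counts in at least 3 of the 6 libraries, and the same 36 were among the 14801 genes that entered the test. Both populations came from Gli1-CreERT2; tdTomato mice of the C57BL/6 strain, which received tamoxifen (TAM) at 1 month of age and were harvested 1 day later. CreERT2 is driven by the Gli1 locus, so tdTomato marks cells in which that locus was active at the time of TAM, and the Gli1- cells carried the same alleles and had seen the same TAM. Gli1+ cells were sorted as CD45-CD31-Ter119-tdTomato+ and Gli1- cells as CD45-CD31-Ter119-tdTomato-, with 3 libraries of each. The labels name the growth plate as the tissue and the study's methods name costal cartilage, digested with collagenase overnight.

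Type I and type III interferons act through the kinases JAK1 and TYK2 on STAT factors, of which STAT2 joins IRF9 in the complex ISGF3. ISGF3 binds a short DNA element, the interferon-stimulated response element (ISRE), before genes such as the IFIT, OAS and MX families. Interferon gamma acts through JAK1 and JAK2 on a different element, GAS, and favours the GBP and IRG GTPases. Many cells keep a low level of these transcripts without infection, and cytoplasmic sensors of RNA and DNA can induce some of them directly.

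The 6 libraries held between 17114101 and 18602482 counts each. Genes with at least 1 count numbered 15000 in Gli1+ replicate 1 and between 20666 and 23360 in the others. Levels below are CPM, the counts of a gene scaled to a common library size after TMM normalization, and fold changes are edgeR log2FC of Gli1+ over Gli1- with their standard errors (SE). The 11 chondrocyte markers summed to between 7550 and 33300 CPM, and Col2a1, the main cartilage collagen, was at 2130 CPM or more in every library. Gli1 itself lay between 4.55 and 7.98 CPM in Gli1+ and between 0.724 and 2.43 CPM in Gli1- cells. Gli1- replicate 1 stood apart in its leukocyte markers, although CD45+ cells had been gated out. Its 6 pan-leukocyte markers summed to 643 CPM, against 4.04 to 13.0 CPM in the other libraries, its 8 neutrophil markers to 3190 against 9.45 to 76.9 CPM, and its 9 macrophage markers to 732 against 24.3 to 161 CPM. Of this macrophage sum, Lyz2 alone was 581 CPM. Adgre1, Csf1r and Fcgr1 were also highest there, at 30.4, 54.1 and 1.81 CPM. Cd68, at 63.8 CPM, was not, and Mrc1, C1qa, C1qb and C1qc did not exceed 0.569 CPM there. Ptprc, which encodes CD45, was at 54.7 CPM there and at 0.0525 to 1.11 CPM elsewhere. Lymphocyte markers stayed at 0.464 to 7.68 CPM in all 6 libraries. The 6 plasmacytoid dendritic cell markers summed to between 58.0 and 81.1 CPM in Gli1+ and between 73.3 and 171 CPM in Gli1- libraries. Most of this was Tcf4, at 49.2 to 163 CPM, and Bst2, at 3.97 to 24.1 CPM, which is also among the interferon-stimulated genes studied here. Irf8 reached at most 2.45 CPM, and Siglech, which defines these cells, did not exceed 0.123 CPM. Dissociation stress markers summed to between 1840 and 15500 CPM in Gli1+ and between 10700 and 32400 CPM in Gli1- libraries. The sum was lower in Gli1+ in 3 of 3 same-numbered pairs, as were 19.8% of all genes and many of the genes below. Of these markers, Dusp1 was higher in Gli1+ in pairs 2 and 3, and Egr1 in pair 2. The 6 endothelial markers summed to 17.2 CPM in Gli1- replicate 1 and to 2.95 to 5.5 CPM elsewhere. Results that rest on Gli1- replicate 1 are given with and without it, and the part of other cells' RNA or of stress in the results was not tested.

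Most of the measured interferon-stimulated genes had a lower level in Gli1+ than in Gli1- cells, but no single gene passed the adjusted threshold. Of the 36 tested, 31 had a negative log2FC, with a median of -1.12 and a range from -4.26 for Oasl1 to 1.01 for Lgals3bp. Over all 14801 genes 49.9% were lower and the median was 0.0013. Without Gli1- replicate 1, 28 of 36 were lower and the median was -0.79. Without either library numbered 1, it was -0.66 over 35 genes. With both a |log2FC| over 1 and a Benjamini-Hochberg adjusted p under 0.05 required, edgeR's quasi-likelihood test called 0 of the 36 and 0.0% of all genes, where the smallest adjusted p was 0.9999. At an unadjusted p under 0.05, 514 of all genes were reached. Among the 36, 7 were lower at that level (background 2.04%) and 1 was higher (background 1.43%). These were Ifit1, Ifit3, Oasl1, Oasl2, Usp18, Irf9 and Ifih1, and Lgals3bp respectively. The count of 7 was 3 without Gli1- replicate 1, 4 without Gli1+ replicate 3, 11 without Gli1+ replicate 2 and 4 without either library numbered 1, and in each of these fits 0 were higher. Over all genes the 514 became 279, 323, 1199 and 282 in these fits, in the same order. Of the 36, 12 reached 10 counts in all 3 Gli1- libraries and in fewer Gli1+ libraries, so they could have entered through Gli1- cells alone, a way that favours lower values in Gli1+. They were Ifit3b, Isg15, Mx2, Oasl1, Oasl2, Rtp4, Ifi35, Dhx58, Xaf1, Parp14, Gbp3 and Igtp. The counts and the median therefore describe the genes that passed, not all 43. In bulk RNA, fewer cells that express a gene and less of its RNA per cell cannot be told apart.

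The libraries do not overlap for 10 of the 36 in the lower direction, against 4.45% of all genes, and for 2 in the higher direction, against 4.04%. The 10 were Ifit1, Ifit3, Ifit3b, Isg15, Oasl1, Irf9, Stat2, Ifih1, Parp9 and Igtp, and the 2 were Ifit2 and Lgals3bp. Of the 10, Ifit3b, Isg15, Oasl1 and Igtp could have entered the test through Gli1- cells alone, which favours lower values in Gli1+. Without Gli1- replicate 1 the lower group held the same 10 genes, against 7.61% of all genes. With 3 libraries against 3, an exact two-sided permutation test of one gene cannot go below p = 0.1, which is the value for each of these 12. Within same-numbered pairs, 19 of 36 were lower in Gli1+ in 3 of 3 pairs, against 19.8% of all genes. Among the 19, Ifit3b, Isg15, Mx2, Oasl1, Oasl2, Rtp4, Xaf1 and Igtp could likewise have entered through Gli1- cells alone.

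Deviations of same-numbered libraries from their group means correlated at 0.72 and 0.471 for numbers 2 and 3, but at only 0.223 for number 1. With the replicate number as a block the outcome depended on the tool. Without the block, DESeq2's Wald test called 30 of all genes and 1 of the 36, Ifit1, at an adjusted p of 0.000882. DESeq2's Wald test with this block called 7 of the 36 lower and 0 higher, against 2.11% and 0.777% of all genes. Of these 7, Ifit3b, Oasl1, Oasl2 and Rtp4 could have entered the test through Gli1- cells alone, which favours lower values in Gli1+. The adjusted p-values of this DESeq2 fit were 1.98e-07 for Ifit1, 1.82e-05 for Ifit3, 0.0014 for Oasl2, 0.00332 for Oasl1, 0.0105 for Rtp4, 0.0133 for Ifit3b and 0.0341 for Ifih1. edgeR with the same block called 0 of all genes, with a smallest adjusted p of 0.307. When both libraries numbered 1 were left out of the blocked DESeq2 fit, 7 of 35 were called lower, against 3.27% of all genes, and Lgals3bp was called higher. The lower ones were Ifit1, Ifit3, Ifit3b, Ifih1, Isg15, Oasl1 and Rtp4. Of these, Oasl1 and Rtp4 reached 10 counts in both remaining Gli1- libraries but not in both Gli1+ libraries. They could have entered this fit through Gli1- cells alone, which favours lower values in Gli1+.

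**Figure D1:**
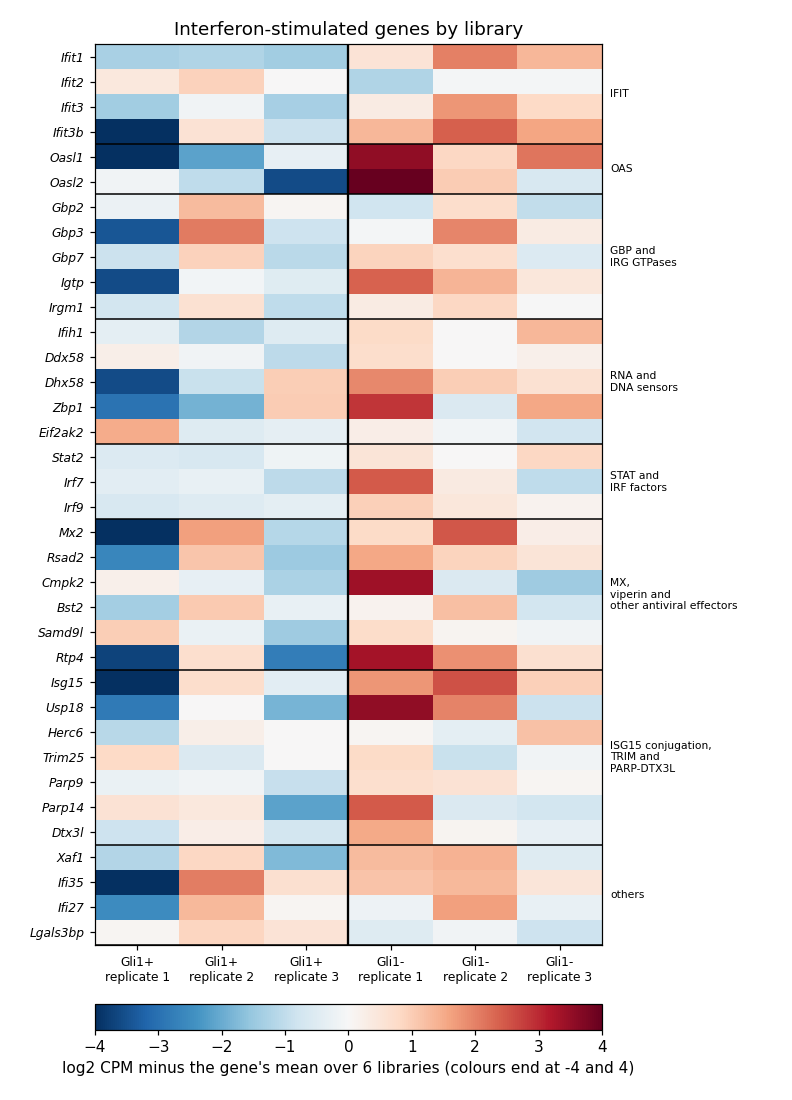
Level of each of the 36 tested genes in each library, as log2 CPM minus that gene's mean over the 6 libraries (colour scale, clipped at -4 and 4), grouped by family. Ifit1 and Ifit3 are high in all 3 Gli1- libraries, the OAS-like genes, Irf7, Usp18, Rtp4 and Cmpk2 peak in Gli1- replicate 1, and several rows are lowest in Gli1+ replicate 1.

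The IFIT proteins bind viral RNA that lacks the host's cap methylation and hold it back from translation. Their 4 listed genes lie next to each other on chromosome 19 (mm10): Ifit2 at chr19:34550694-34576419, Ifit3 at chr19:34583531-34588731, Ifit3b at chr19:34607970-34613401 and Ifit1 at chr19:34640871-34650009, all on the + strand. In these data 3 of the 4 were lower in Gli1+ cells and Ifit2 was the exception. The 200 bases before each RefSeq start site (GRCm38.p6, gene strand) are shown because the neighbours differ there in the ISRE. The capitals mark the ISRE core GAAANNGAAA, which on the gene strand reads TTTCNNTTTC here.
Ifit1, chr19:34640689-34640888: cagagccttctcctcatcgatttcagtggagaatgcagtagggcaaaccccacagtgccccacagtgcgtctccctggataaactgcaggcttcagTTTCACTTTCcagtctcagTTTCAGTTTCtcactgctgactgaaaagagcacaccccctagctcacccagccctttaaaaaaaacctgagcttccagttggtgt
Ifit3, chr19:34583329-34583528: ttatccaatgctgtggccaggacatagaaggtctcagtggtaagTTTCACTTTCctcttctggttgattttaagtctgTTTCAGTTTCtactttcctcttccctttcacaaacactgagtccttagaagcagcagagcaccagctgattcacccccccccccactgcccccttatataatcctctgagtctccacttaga
Ifit3b, chr19:34607757-34607956: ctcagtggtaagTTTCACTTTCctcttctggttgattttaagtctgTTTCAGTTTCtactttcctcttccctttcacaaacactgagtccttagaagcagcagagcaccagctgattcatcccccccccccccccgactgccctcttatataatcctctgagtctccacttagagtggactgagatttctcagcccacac
Ifit2, chr19:34550494-34550693: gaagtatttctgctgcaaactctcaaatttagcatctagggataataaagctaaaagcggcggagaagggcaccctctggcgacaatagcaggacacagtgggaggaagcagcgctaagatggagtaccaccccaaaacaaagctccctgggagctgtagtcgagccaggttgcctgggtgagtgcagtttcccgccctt
Ifit1, Ifit3 and Ifit3b each hold 2 cores, with the same 10 letters in the same order, and neither of the 2 RefSeq windows of Ifit2 holds one. Whether the core bears on the direction of these genes was not tested.

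Ifit1 was at 10.3, 10.8 and 9.51 CPM in Gli1+ replicates 1 to 3 and at 37.2, 101 and 63.2 CPM in Gli1- replicates 1 to 3. The Gli1+ libraries were nearly alike at 10.2 ± 0.654 CPM (SD, n = 3), while the Gli1- libraries spread over 67.2 ± 32.2 CPM (SD, n = 3) and all lay above them. Its log2FC was -2.72 (SE 0.48), with an unadjusted p of 0.00044 in edgeR, and -3.02 without Gli1- replicate 1. Ifit3 was at 7.46, 17.7 and 7.72 CPM in Gli1+ and at 24.5, 68 and 34.1 CPM in Gli1- cells, without overlap. Its log2FC was -1.94 (SE 0.57, unadjusted p 0.00941 in edgeR), and -2.22 without Gli1- replicate 1. Both genes were highest in Gli1- replicate 2, in which the pan-leukocyte markers summed to 8.16 CPM. Its macrophage markers summed to 161 CPM, of which Cd68 alone was 155 CPM. Its dissociation stress markers summed to 32400 CPM, the highest stress sum of the 6 libraries. The 7 fibroblast and perichondrium markers summed to 9580 CPM there, against 1650 to 3890 CPM in the other libraries. The part of these differences in the 2 genes' levels was not tested. Ifit3b, a near copy of Ifit3, was at 0, 5.04 and 1.79 CPM against 8.53, 18 and 10.2 CPM, with a log2FC of -2.43 (SE 1.28). Of all 50-base stretches of Ifit3 transcripts 51.2% occur in Ifit3b, so the counts of these neighbours may not be fully separate. Ifit2 went the other way, at 22.4, 31.9 and 16.8 CPM in Gli1+ and 7.14, 15.8 and 15.9 CPM in Gli1- cells. The groups did not overlap but lay close together, with 16.8 as the lowest Gli1+ and 15.9 as the highest Gli1- value, and the log2FC of 0.88 (SE 0.50) had an unadjusted p of 0.114 in edgeR.

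**Figure D2:**
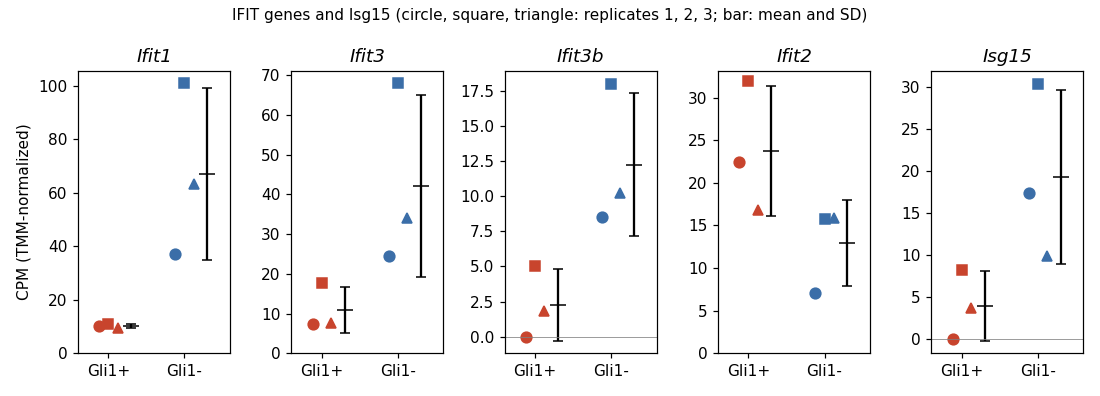
CPM of Ifit1, Ifit3, Ifit3b, Ifit2 and Isg15 in each library (red Gli1+, blue Gli1-, with circle, square and triangle for replicates 1, 2 and 3), with the mean and SD of each group as the black bar and linear axes of their own. Ifit1 stays between 9.51 and 10.8 CPM in Gli1+ and between 37.2 and 101 CPM in Gli1- cells, and Ifit2 has the reverse order.

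Isg15 encodes the ubiquitin-like protein that is attached to other proteins during the interferon response. It lies at chr4:156199424-156200818 on the - strand, and the 200 bases before its RefSeq start hold 3 overlapping ISRE cores, printed as 1 run of capitals on the gene strand.
Isg15, chr4:156200819-156201018: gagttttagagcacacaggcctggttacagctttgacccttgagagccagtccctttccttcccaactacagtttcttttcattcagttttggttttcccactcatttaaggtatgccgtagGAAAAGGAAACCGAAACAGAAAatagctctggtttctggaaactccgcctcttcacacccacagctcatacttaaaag
Isg15 was at 0, 8.29 and 3.73 CPM in Gli1+ and at 17.4, 30.4 and 9.95 CPM in Gli1- cells. Its groups did not overlap. The log2FC was -2.26 (SE 1.32, unadjusted p 0.124 in edgeR), and -2.33 without Gli1- replicate 1. Usp18, which removes ISG15 and dampens the receptor, was at 0, 0.675 and 0.105 CPM in Gli1+ and at 9.15, 2.98 and 0.317 CPM in Gli1- cells. These groups overlap, and its log2FC of -3.99 (SE 1.57, unadjusted p 0.0346 in edgeR) was -2.65 without Gli1- replicate 1. Herc6, the mouse ISG15 ligase, had a log2FC of -0.64 (SE 0.71). Trim25, a ligase that activates the RNA sensor RIG-I, was at 15.3 to 49.5 CPM. Its groups overlapped, with a log2FC of 0.12 (SE 0.56). Parp9 and its partner ligase Dtx3l were at 1.73 to 3.01 and 1.32 to 2.95 CPM in Gli1+ and at 3.54 to 5.48 and 1.9 to 7.08 CPM in Gli1- cells. Parp9 did not overlap between the groups and Dtx3l did. The log2FC of Dtx3l was -1.03 (SE 0.76), and -0.27 without Gli1- replicate 1. Parp9 and Dtx3l are encoded on opposite strands and share 458 exon bases, so reads there cannot be assigned without strand. Parp14, a mono-ADP-ribosyltransferase, turned with 1 library: its log2FC was -1.17 (SE 1.11) with Gli1- replicate 1 and 0.71 without it. Of the 7 tested genes of ISG15 conjugation and the TRIM and PARP groups, 6 were lower, with a median log2FC of -1.03, and -0.78 without Gli1- replicate 1.

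The OAS enzymes make 2′-5′ oligoadenylates on double-stranded RNA and so activate RNase L, and the OAS-like proteins are relatives of which OASL1 restrains IRF7 translation. All 5 listed genes are on chromosome 5. The counts of Oas1a, Oas2 and Oas3 lay almost wholly in Gli1- replicate 1. Oas1a had 283 counts there and at most 4 in any other library, and Oas2 had 219 there and at most 1 elsewhere. Oas3 had 901 counts there, 42 in Gli1+ replicate 1 and at most 6 in the rest. These 3 were not tested, because too few libraries reached 10 counts. Oasl1 was at 0, 0.307 and 1.37 CPM in Gli1+ and at 21.4, 3.18 and 7.99 CPM in Gli1- cells, without overlap. Its log2FC was -4.26 (SE 1.36, unadjusted p 0.0135 in edgeR), and -3.30 without Gli1- replicate 1. Oasl2 was at 1.11, 0.553 and 0 CPM against 27.8, 2.59 and 0.741 CPM. Its groups overlapped, since the lowest Gli1- value lay below the highest Gli1+ value, and its log2FC of -4.21 (SE 1.64, unadjusted p 0.0324 in edgeR) was -1.58 without Gli1- replicate 1. Oas1a shares 57.6% of its 50-base stretches with Oas1g, so its counts may be split with that copy.

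STAT2, IRF9 and IRF7 carry the signal to the nucleus, the first 2 within ISGF3 and IRF7 as the factor that amplifies interferon transcription. All 3 genes had a negative log2FC, with -1.08 as the median. Irf9 was at 9.42, 10.3 and 11.2 CPM in Gli1+ and at 28.8, 20.2 and 16.2 CPM in Gli1- cells. The groups did not overlap and the Gli1+ libraries were close to each other, with a log2FC of -1.08 (SE 0.43, unadjusted p 0.0363 in edgeR), and -0.83 without Gli1- replicate 1. Stat2 was at 10.4, 9.83 and 13.8 CPM against 21.8, 15.6 and 27.7 CPM, again without overlap. Its log2FC was -0.94 (SE 0.44, unadjusted p 0.0635 in edgeR) with or without Gli1- replicate 1. Irf7 was at 2.7, 2.95 and 1.73 CPM in Gli1+ and at 20.5, 4.77 and 1.75 CPM in Gli1- cells. Only Gli1- replicate 1 was far above the rest, and the log2FC of -1.87 (SE 0.90) became -0.41 without it.

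Among the sensors, Ifih1 encodes MDA5, which recognises long double-stranded RNA, Ddx58 encodes RIG-I, Dhx58 encodes their regulator LGP2, Zbp1 senses Z-form nucleic acid and Eif2ak2 encodes PKR, the kinase that stops translation on double-stranded RNA. Of these 5, 4 were lower in Gli1+ cells and Eif2ak2 was higher, and the median was -1.46, and -1.09 without Gli1- replicate 1. Ifih1 was at 8.62, 4.91 and 7.93 CPM in Gli1+ and at 19.1, 11.3 and 28.6 CPM in Gli1- cells. It was highest in Gli1- replicate 3, the groups did not overlap, and the log2FC was -1.46 (SE 0.52, unadjusted p 0.0228 in edgeR), and -1.49 without Gli1- replicate 1. Ddx58 was at 13.8, 10.6 and 5.67 CPM against 19.4, 11.9 and 13.6 CPM, with overlapping groups and a log2FC of -0.58 (SE 0.51). Dhx58 and Zbp1 did not exceed 6.1 CPM in any library, and both had overlapping groups. Their log2FC values were -1.58 (SE 1.32) and -2.34 (SE 1.54), and -1.09 and -1.30 without Gli1- replicate 1. Dhx58 shares 141 exon bases with an antisense gene that had 700 counts in all, so its level is uncertain. Eif2ak2 was at 18.9 CPM in Gli1+ replicate 1 and at 3.91 to 8.12 CPM in the other 5 libraries. Its log2FC was 0.66 (SE 0.69), and -0.33 without Gli1+ replicate 1.

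The GBP and IRG GTPases coat the vacuoles of intracellular microbes and answer mainly to interferon gamma. Their median log2FC was -0.53 over 5 genes, and -0.66 without Gli1- replicate 1, and none reached an unadjusted p under 0.05. Gbp2 was at 18.4, 52 and 23 CPM in Gli1+ and at 12.4, 35.1 and 11 CPM in Gli1- cells, so Gli1+ was higher in each same-numbered pair while the groups overlapped. Its log2FC was 0.68 (SE 0.62). Gbp3, Gbp7 and Irgm1 had log2FC values of -0.32, -0.53 and -0.61, all with overlapping groups. Igtp, which encodes IRGM3, was at 0, 1.11 and 0.84 CPM against 6.62, 3.25 and 1.69 CPM, without overlap. Its log2FC was -2.56 (SE 1.26, unadjusted p 0.0755 in edgeR), and -1.92 without Gli1- replicate 1. It shares 11.8% of its 50-base stretches with its neighbour Irgm2. Iigp1 had at most 11 counts in any library and was not tested.

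Of the antiviral effectors, all 6 that were tested had a negative log2FC, with a median of -1.25, and none reached an unadjusted p under 0.05. Without Gli1- replicate 1 the median was -0.65, and Cmpk2 and Samd9l (0.08) were positive. Rsad2, which encodes viperin, was at 0.847, 12.5 and 2 CPM in Gli1+ and at 17, 10.5 and 8.15 CPM in Gli1- cells. The high value of Gli1+ replicate 2 made the groups overlap, and the log2FC was -1.22 (SE 0.94). Cmpk2, the nucleotide kinase beside Rsad2 on chromosome 12, was at 1.22, 0.798 and 0.368 CPM against 12, 0.663 and 0.317 CPM. It was high in Gli1- replicate 1 alone, and its log2FC of -2.44 (SE 1.35) became 0.68 without that library. Rtp4 was at 0, 2.21 and 0.105 CPM against 14.6, 5.04 and 2.17 CPM. Its groups overlapped by a narrow margin, with a log2FC of -3.24 (SE 1.53, unadjusted p 0.0658 in edgeR), and -2.22 without Gli1- replicate 1. Bst2, which encodes the virus tether tetherin, lay between 3.97 and 24.1 CPM, with a log2FC of -0.30 (SE 0.75). Mx2 and Samd9l had log2FC values of -1.28 and -0.20 with overlapping groups. Mx1 had at most 1 count in any library, and the C57BL/6 strain is known to carry a defective Mx1 allele. Ifi44 had at most 15 counts and, like Mx1, was not tested.

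The remaining genes were Xaf1, Ifi35, Ifi27 and Lgals3bp. Ifi27 had the highest level per kilobase of all listed genes, at 24.3 CPM per kb in Gli1+ and 31.5 CPM per kb in Gli1- cells, followed in Gli1- cells by Isg15 at 25.5, Ifit1 at 25.3 and Ifit3 at 24.2 CPM per kb. Within Gli1+ cells the next levels were those of Bst2 and Gbp2 at 12.4 CPM per kb each, whereas Ifit1 was at 3.84 CPM per kb. Ifi27 ranged from 5.03 to 71.1 CPM in Gli1+ and from 23.4 to 90.2 CPM in Gli1- libraries, so its log2FC of -0.38 (SE 0.90) was well within that spread. Lgals3bp, a secreted glycoprotein that binds galectins, was at 24.4, 42.3 and 33.6 CPM in Gli1+ and at 15.9, 20.9 and 12.9 CPM in Gli1- cells. The groups did not overlap, and its log2FC was 1.01 (SE 0.42, unadjusted p 0.042 in edgeR), and 0.98 without Gli1- replicate 1. Ifi35 and Xaf1 had log2FC values of -0.08 and -1.28 with overlapping groups.

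**Figure D3:**
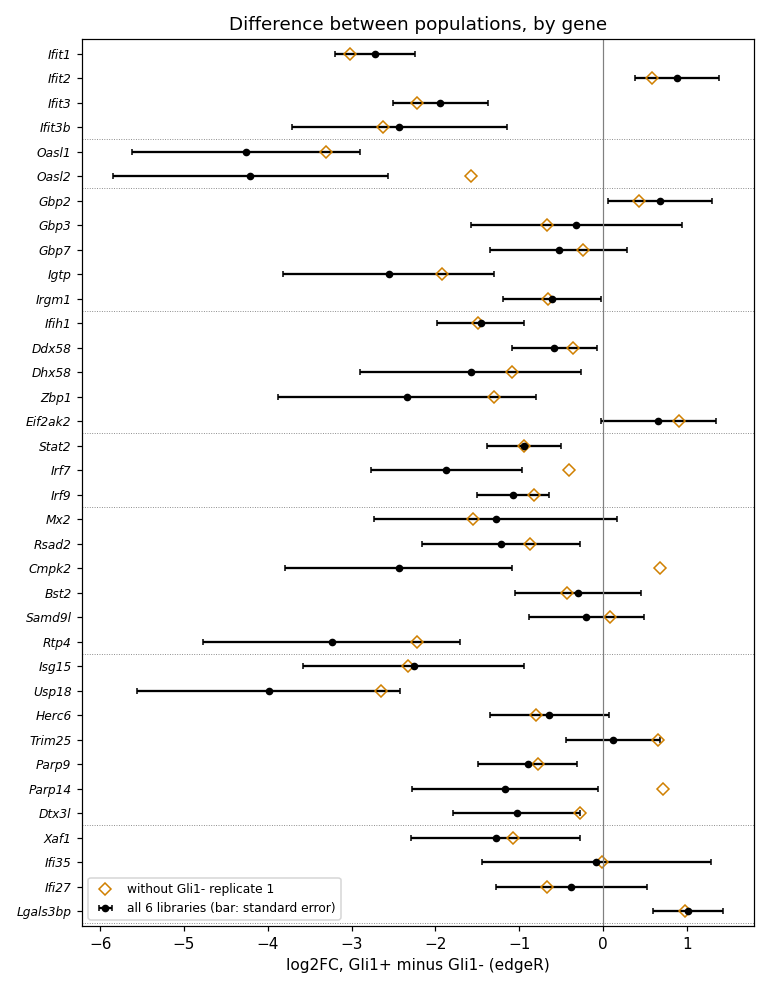
edgeR log2FC of Gli1+ over Gli1- for each of the 36 tested genes, with standard errors (black), and the same value after Gli1- replicate 1 was left out (orange diamonds), with dotted lines between families. Ifit1, Ifit3, Ifih1 and Stat2 stay within 1 SE, Oasl2 and Irf7 move toward 0, and Cmpk2 and Parp14 cross it.

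Gli1- replicate 1, the library with leukocyte markers, was the highest library for 15 of the 36, against 12.5% of all genes. It was at 2 or more times every other library for 10 of them, against 2.3% of all genes, a limit chosen after the values were seen. These 10 were Oasl1, Oasl2, Irf7, Usp18, Rtp4, Zbp1, Parp14, Dtx3l, Cmpk2 and Igtp. Igtp was just inside the limit at 2.04 times and Dhx58 just outside it at 1.97 times. Of the genes that were not tested, Oas1a, Oas2, Oas3 and Trim30a were found nearly in that library alone, Trim30a with 207 counts there and at most 7 elsewhere. Gli1+ replicate 1, the library with the fewest genes detected, had 0 counts for 10 of the 36, against 9.56% of all genes. Among these were Isg15, Ifit3b, Oasl1, Rtp4 and Igtp. Without that library the median log2FC of the 36 was -1.0 and 29 were negative.

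**Figure D4:**
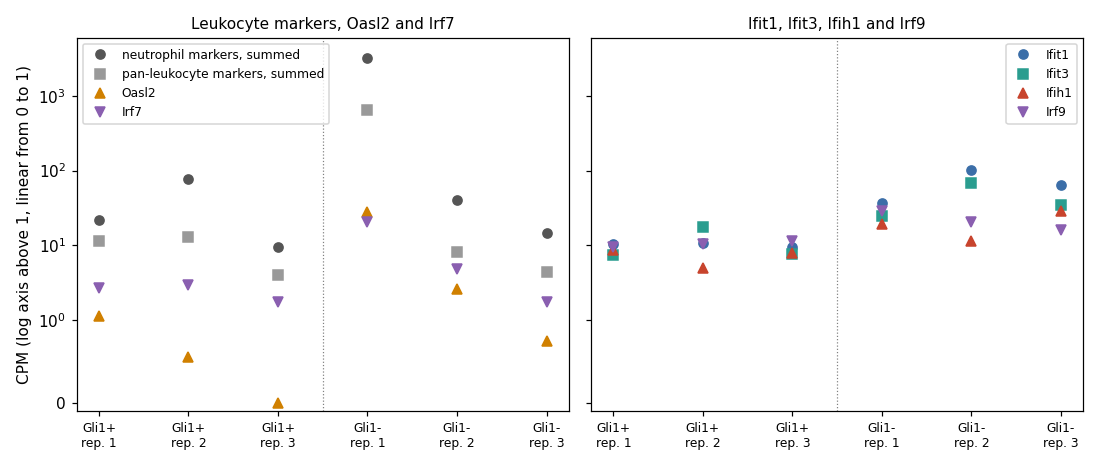
CPM in each library (log axis above 1, linear from 0 to 1) of summed neutrophil and pan-leukocyte markers with Oasl2 and Irf7 (left), and of Ifit1, Ifit3, Ifih1 and Irf9 (right). Oasl2 and Irf7 peak with the markers in Gli1- replicate 1, while the 4 genes on the right are above every Gli1+ library in all 3 Gli1- libraries.

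The ISRE was searched in the RefSeq promoter windows, which run from 250 bases before to 50 bases after a start site and were given for 32 of the 43 genes. The core GAAANNGAAA, on either strand, was found in 18 of the 32 (56.2%), against 3.99% of 27025 genes with such a window. Among genes with a window, it was in all 5 GBP and IRG genes and all 3 sensors, in 3 of 4 IFIT and 2 of 4 OAS genes, in Stat2 but not Irf7 or Irf9, in 2 of 5 antiviral effectors and 2 of 5 ISG15, TRIM and PARP genes, and in 0 of 3 of the remaining genes. The GAS core TTCCNGGAA was found in 3 of 32 (9.38%), against 1.35% of all genes. A site from each of 5 further families is shown, 5′ to 3′ on its own strand with the core in capitals, because the letters at the N positions and the distance to the start differ.
Ifih1, chr2:62646209-62646228, in the transcribed part: gaatcGAAACAGAAAccgat
Stat2, chr10:128270271-128270290: gaaagGAAACTGAAAccagg
Gbp2, chr3:142620599-142620618: acagtGAAAGTGAAActaaa
Oas3, chr5:120777720-120777739: gaggaGAAAACGAAAgtgaa
Rsad2, chr12:26456558-26456577: tttctGAAAATGAAAgttgg
The core of Gbp2 reads as the first of Ifit1 in its motif strand and lies 59 bases before the start, and that of Stat2 lies 222 bases before it. Of the 15 tested genes with a core 13 were lower in Gli1+ cells (median log2FC -0.94), and of the 13 with a window and no core 10 were lower (median log2FC -1.03).

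Upstream of these genes, the interferons themselves were not detectable at this depth. All 11 ligand genes on the list, among them Ifnb1 and Ifng, had at most 5 counts in any library. The 10 receptor and kinase genes were all tested, 9 were lower in Gli1+ cells with a list median of -0.36, and none reached an unadjusted p under 0.05. The most abundant were Jak1, at 153 to 265 CPM in Gli1+ and 225 to 254 CPM in Gli1- cells, and Jak2, with log2FC values of -0.23 (SE 0.40) and -0.13 (SE 0.39). Of 10 tested genes on the routes that induce interferon, 7 were lower. Over all genes tested 49.9% were lower. Tmem173, which encodes STING, was at 2.06, 3.38 and 1.73 CPM in Gli1+ and at 5.48, 7.89 and 5.29 CPM in Gli1- cells, without overlap (log2FC -1.38, SE 0.58, unadjusted p 0.0455 in edgeR). Tlr4, the receptor for lipopolysaccharide, was at 23.1, 20 and 11 CPM against 39.8, 38.6 and 38 CPM, also without overlap (log2FC -1.10, SE 0.42, unadjusted p 0.0295 in edgeR). The most abundant of that list, Ikbke and Myd88, had log2FC values of -0.60 and -0.38.

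The 6 genes listed as inhibitors were all lower, with a median log2FC of -0.75, and included Isg20, which is an exonuclease rather than an inhibitor. Ptpn6, a phosphatase of blood cells, had an unadjusted p of 0.0246 in edgeR, but was at 104 CPM in Gli1- replicate 1 and at most at 1.35 CPM elsewhere. Its log2FC ran from -7.18 to -0.68 over the fits that left out 1 library each. Ptpn6 reached 10 counts in all 3 Gli1- libraries and in fewer Gli1+ libraries, so it could have entered through Gli1- cells alone. Ptpn2 and Socs3, the most abundant, had log2FC values of -0.45 and -1.08. Of 38 other interferon-induced genes 26 were tested. Of these, 20 were lower and 6 higher, with a median log2FC of -0.92, while 49.9% of all genes were lower. Irf8, Ifitm1, Irgm2, Gbp6, Uba7, Ube2l6, Phf11d and Ifi27l2a reached 10 counts in all 3 Gli1- libraries and in fewer Gli1+ libraries. They could have entered the test through Gli1- cells alone, which favours lower values in Gli1+. Among the 26, Uba7, the enzyme that activates ISG15, was the single one under an unadjusted p of 0.05 in edgeR, with a log2FC of -3.44 (SE 1.37, unadjusted p 0.0355). It is among those that could have entered through Gli1- cells alone. It was at 0, 0.246 and 0.63 CPM in Gli1+ and at 7.03, 1.66 and 1.01 CPM in Gli1- cells. Over the fits that left out 1 library each, the log2FC of Uba7 ran from -4.68 to -2.16. Of the most abundant, the chemokine genes Ccl5 and Cxcl10, Ccl5 was at 10.3, 720 and 306 CPM against 77.1, 231 and 140 CPM, with a log2FC of 1.21 (SE 1.12), and Cxcl10 had a log2FC of -0.48 (SE 0.86). None of the genes on these 5 lists was called by edgeR or by the blocked DESeq2 fit.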

How the data were processed

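RNA from sorted Gli1+ and Gli1- cells was measured by RNA sequencing of poly-A selected RNA, in 3 libraries each. The authors deposited whole-number read counts per gene without normalization or pooling, made on mm10 with HISAT2 2.0.5 and featureCounts 1.5.0-p3 per the submitters' processing notes. The strand setting and annotation release are not given in the sources used here. All count columns were mapped, and 0 were left unused. Standard errors cover the spread between libraries, which the study calls biological replicates.

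Genes kept by filterByExpr (minimum count 10) were tested with edgeR 4.0.16 (quasi-likelihood, TMM, prior count 2 for log2 CPM) in R 4.3.3, with Benjamini-Hochberg adjustment over all genes tested. The biological coefficient of variation was 0.662, and 0.466 with the replicate block. DESeq2 1.42.0 and limma 3.58.1 served as alternatives, among 15 set beforehand and 2 added after the data were seen. The edgeR, DESeq2 and limma fits were tested on simulated data. These had less spread than the libraries here and no replicate effect, so that check does not cover the spread of these data. The study sorted both populations out of the same animals. Same-numbered libraries may therefore share animals, so they were compared as pairs and the number was a block in alternative fits only. Deviations from group means correlated at 0.223, 0.72 and 0.471 for numbers 1, 2 and 3. Gli1+ replicate 1 correlated slightly better with Gli1- replicate 3 (0.274) than with Gli1- replicate 1. No source ties a number to a mouse, and the fit without the block stayed the main one.

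The genes and lists were chosen with earlier results of these data known. All listed genes that were tested are named or counted in their family. Of the pathway lists, genes at an unadjusted p under 0.05 and the 2 with the highest mean CPM are named. Single values of 1 gene on these lists are not reported here. Promoter windows are RefSeq's (GRCm38.p6). Shared 50-base stretches and exon overlaps come from GENCODE M21, in which 42 of the 43 genes had the coordinates of the table. Sequence on chromosome 18 was not used here.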

Additional observations from a re-analysis of the deposited data

How the results depend on the processing

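With 3 libraries a group, and with 7 of the 43 genes too low to test, these results are limited by both number and depth. Under 15 alternatives set beforehand and 2 added later, the median log2FC of the interferon-stimulated genes stayed negative, between -1.51 and -0.79 when single libraries were left out. edgeR called 0 of them and 0 genes overall under other scalings, a filter of 10 counts in 3 libraries, the replicate block, each left-out library and both libraries numbered 1 left out, as did limma-voom. Without a filter on low counts 267 genes and 7 of the list were called. The 7 were Ifit1, Oas1a, Oas2, Oas3, Oasl1, Oasl2 and Trim30a, all lower, against 0.866% of all genes. Of these, Oas1a, Oas2, Oas3 and Trim30a were found nearly in Gli1- replicate 1 alone. At an unadjusted p under 0.05, 17 of the list were lower and 0 higher, where 1316 of 28536 genes were reached in either direction. DESeq2's Wald test called 30 genes and 1 of the list, with 12 lower. With the replicate block it called 428 genes and 7 of the list, with 14 lower and 2 higher. edgeR with the block called none and had 9 lower, against 5.25% of all genes, and 2 higher. In these fits, in order, 717, 1734 and 1274 of 14801 genes reached an unadjusted p under 0.05 in either direction, against 514 in the main fit. The blocked DESeq2 fit without both libraries numbered 1 called 781 genes and 8 of the list, with 11 lower and 2 higher. edgeR without both had 4 lower and 0 higher. There 2657 and 282 of 15331 genes reached that p. Leaving out single libraries gave 3 (without Gli1- replicate 1) to 11 (without Gli1+ replicate 2) lower and 0 to 1 higher genes. Over all genes, 279 and 1199 reached that p without those libraries, respectively. The cause of these differences was not tested.

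Single genes turned direction. Without both libraries numbered 1, log2FC was 0.57 for Ifi35, 0.32 for Parp14, 0.05 for Gbp7 and -0.04 for Eif2ak2 in edgeR, and 0.46 for Ifi35, 0.11 for Bst2, -0.01 for Eif2ak2 and 0.01 for Ifi27 in the blocked DESeq2 fit. Over the fits that left out 1 library each, log2FC ran from -1.38 to 0.48 for Ifi35, from -1.17 to 0.33 for Bst2, from -1.66 to 0.71 for Parp14, from -0.36 to 0.65 for Trim25, from -3.01 to 0.68 for Cmpk2, from -2.78 to 0.57 for Gbp3, from -0.33 to 0.97 for Eif2ak2, from -1.07 to 0.20 for Samd9l and from -1.37 to 0.53 for Ifi27. The other 27 of the 36 kept their sign in all 6 of these fits.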

Other observations

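Several interferon-induced genes outside the 43 had too few counts for the test and were found almost only in Gli1- replicate 1, the library with leukocyte markers. They were chosen after their values were seen. Sp100, a nuclear body protein, had 370 counts there and at most 14 elsewhere. Slfn5 had 294 counts there and at most 6 elsewhere, and Ddx60 had 104 and at most 14. Oas1g, the near copy of Oas1a, had 52 counts there and 0 in the other 5 libraries. The part of leukocyte RNA in these counts was not tested.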
